A study of Mus musculus with 60 samples.

Results

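The ventral forebrain of the mouse embryo was followed from embryonic day E12.5 to E14.5 in bulk RNA sequencing of dissected tissue pieces. The libraries were the 9 labelled as ventral forebrain at these stages, 3 at each of E12.5, E13.5 and E14.5, out of 60 libraries of 5 brain regions at 4 stages. Every embryo came from the TH-GFP line, in which green fluorescent protein marks cells that use the gene for tyrosine hydroxylase, and no group without the transgene and no treated group was part of the design. The fluorescence guided the dissection, and the labels define the borders of the ventral midbrain pieces but not those of the forebrain pieces. Nothing in the labels tells if the 3 libraries of a stage are from different embryos or from 1 pool, so that a p-value here covers sample-to-sample spread, which may be technical.

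The ventral forebrain lies in front of the midbrain and gives rise to the hypothalamus, the centre of hormone release, feeding and body temperature control. Sonic hedgehog signals from below and the homeodomain factor Nkx2-1 set up this territory, and a row of further homeodomain factors then divides it into nuclei whose neurons are told apart by the peptides they release. The thalamus, the prethalamus and the pretectum, a strip of tissue at the border with the midbrain, form from the diencephalic wall next to it and use other factors, among them Tcf7l2, Gbx2, Lhx9 and, in GABAergic cells, Gata3 and Tal1.

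Values are RPKM, reads per kilobase of transcript per 1000000 assigned reads, and changes are log2 fold changes of RPKM + 1 with their standard errors from limma. A gene was called when its Benjamini-Hochberg adjusted p was below 0.05 and its absolute log2 fold change was at least 1, and "rose" and "fell" refer to such genes only. The E12.5 libraries held 9445336, 9017506 and 11632663 reads, the E13.5 libraries 10248920, 7944211 and 8506081 reads, and the E14.5 libraries 2493976, 979197 and 5822096 reads. Low values at E14.5 therefore carry the largest counting error. By the name prefixes in the labels each of these stages of the ventral forebrain had a run of its own. A change between stages therefore cannot be told apart from a change between runs.

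Marker genes of the labelled region differed between the libraries. Nkx2-1 reached 48.3, 76.1 and 80.5 RPKM in the E14.5 libraries (replicates 2, 3 and 4), against 0.0357, 0.561 and 13.9 RPKM in the E12.5 libraries (replicates 1, 2 and 3). Thus E12.5 replicates 1 and 2 nearly lacked the defining factor of the hypothalamus, although Six3, a factor of the anterior forebrain, was at 7.93, 20.7 and 16.2 RPKM there. E12.5 replicate 1 stood apart in other ways too: Gbx2, a thalamic factor, was at 116, 9.27 and 5.68 RPKM in the 3 E12.5 libraries, the floor plate factor Foxa2 at 0.143, 16.9 and 21.5 RPKM and the summed level of the 33 mitosis genes followed at 618, 172 and 201 RPKM. At E13.5, replicate 5 kept thalamic and pretectal genes that its partners lacked, with Tcf7l2 at 5.51, 264 and 4.12 RPKM in replicates 4, 5 and 6. Pituitary genes summed to 14.7 RPKM in E14.5 replicate 3 and 6.81 RPKM in E13.5 replicate 5, and to less than 1 RPKM in the other 7 libraries. The hindbrain gene Hoxb3 reached at most 0.029 RPKM in the E12.5 libraries. The territory in the piece and the stage of the embryo cannot be told apart in these data, and in bulk tissue fewer cells of a type cannot be told apart from less RNA per cell. Results are therefore also given without E12.5 replicate 1.

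Of 13529 genes tested, 220 rose (1.63%) and 120 fell (0.887%) at E14.5 relative to E12.5, and the median log2 fold change over all genes tested was 0.05. Leaving out E12.5 replicate 1, 176 genes rose (1.3%) and 112 fell (0.827%), of which 150 and 75 were among those called with it. The count dropped to 116 without E12.5 replicate 2 and to 174 without E14.5 replicate 3, the shallowest library. A count-based fit, limma's voom on whole reads recovered from the RPKM, called 277 genes higher and 52 lower, so that 84.2% of its calls were higher, against 64.7% of those on RPKM. Transcription factors of the hypothalamus and the hypothalamic peptide Pmch led the genes that rose. Transcription factors of the thalamus and pretectum led the genes that fell.

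**Figure D1:**
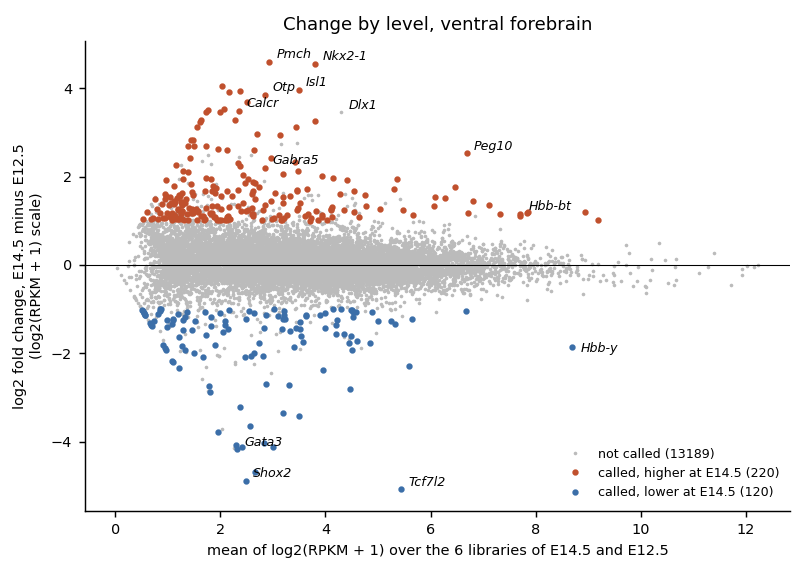
Log2 fold change of each of the 13529 genes tested, E14.5 minus E12.5 (vertical axis, log2 of RPKM + 1), against the mean of log2(RPKM + 1) over the 6 libraries of these stages (horizontal axis). The 220 genes that rose and the 120 that fell are coloured and the rest are grey. Pmch lies at 4.59 and Tcf7l2 at -5.07.

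Of 29 tested members of a list of 30 transcription factors used in the hypothalamus, 15 rose (background 1.63%) and none fell. Their median log2 fold change was 2.05, beside 0.05 over all genes tested. Without E12.5 replicate 1 the counts were 14 and 0 and the median 1.64. To be tested, a member had to reach a mean of 1 RPKM at any stage. The 6 members at 0 in all E12.5 libraries thus entered only through later stages, and a fall was excluded for them in advance. The counts and medians of this list are for that reason a description. The remaining 14 tested members passed no test in the 9 libraries, among them Six3 at 0.26 ± 0.80 and Arnt2, a partner of Sim1, at -0.11 ± 0.12.

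Nkx2-1 rose by 4.55 ± 0.85 (adjusted p = 0.0141), and by 3.81 ± 0.81 (adjusted p = 0.0248) without E12.5 replicate 1. Its relative Nkx2-4 was at 4.47, 12.3 and 11.4 RPKM in the E14.5 libraries, against 0, 0.0952 and 2.44 RPKM in the E12.5 libraries, a change of 2.63 ± 0.56 (adjusted p = 0.0196). In both genes E12.5 replicate 3 was the highest of its stage and still lay below each E14.5 library. On the mm10 build, Nkx2-1 lies on chromosome 12 (56531958 to 56536908, minus strand). Bsx lies on chromosome 9 (40874127 to 40880057, plus strand), Otp on chromosome 13 (94875602 to 94885130, plus strand) and Pmch on chromosome 10 (88091072 to 88092375, plus strand).

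Bsx, a homeodomain factor of the neurons that drive feeding, had 10.7, 23.0 and 18.0 RPKM in the E14.5 libraries, against 0, 0 and 0.529 RPKM in the E12.5 libraries. The groups were far apart and the change was 3.92 ± 0.37 (adjusted p = 0.00356). Otp, which the neuroendocrine neurons of the paraventricular nucleus need, had 45.4, 24.7 and 16.5 RPKM in the E14.5 libraries, against 0, 1.64 and 1.61 RPKM in the E12.5 libraries. The increase was 3.85 ± 0.43 (adjusted p = 0.00394), with E12.5 replicate 1 at 0. Sim1, which works in the same neurons as Otp, was at 19.1, 14.7 and 19.2 RPKM in the E14.5 libraries, against 1.52, 2.98 and 7.91 RPKM in the E12.5 libraries, and rose by 2.05 ± 0.41 (adjusted p = 0.0171). Tbx3, a T-box factor of the arcuate nucleus, was at 2.76, 8.48 and 7.17 RPKM in the E14.5 libraries, against 0, 0.0674 and 0.0348 RPKM in the E12.5 libraries, and rose by 2.68 ± 0.41 (adjusted p = 0.00816).

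Fezf1, a zinc finger factor of the ventromedial hypothalamus, had 28.6, 17.8 and 13.8 RPKM in the E14.5 libraries, against 1.23, 0 and 0.0357 RPKM in the E12.5 libraries. It rose by 3.94 ± 0.80 (adjusted p = 0.0173), and its highest E12.5 value belonged to replicate 1. Isl1, a LIM homeodomain factor of arcuate and prethalamic neurons, was at 47.5, 46.7 and 36.6 RPKM in the E14.5 libraries, against 8.22, 0.338 and 0.851 RPKM in the E12.5 libraries. The change was 3.96 ± 0.91 (adjusted p = 0.0249), and 4.82 ± 0.83 (adjusted p = 0.0154) without E12.5 replicate 1, again the highest library of its stage. Foxb1, a forkhead factor of the mammillary region, was at 13.4, 23.5 and 38.3 RPKM in the E14.5 libraries, against 1.82, 2.12 and 11.6 RPKM in the E12.5 libraries. It rose by 2.32 ± 0.62 (adjusted p = 0.0378), but without E12.5 replicate 1 the adjusted p was 0.0813.

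Several members were at 0 in all E12.5 libraries. Nr5a1, the nuclear receptor that defines the ventromedial nucleus, had 8.69, 14.7 and 8.68 RPKM in the E14.5 libraries, at least 98.0-fold higher than the level that 3 reads in 1 E12.5 library would give (adjusted p = 0.03, and 0.054 without E12.5 replicate 1). Six6, a factor of the eye field and the suprachiasmatic nucleus, had 17.7, 18.9 and 2.54 RPKM in the E14.5 libraries and was at least 159-fold higher on the same count (adjusted p = 0.022). Vax1, which forms the optic stalk and the anterior hypothalamus, had 26.9, 17.4 and 7.84 RPKM in the E14.5 libraries and was at least 58.4-fold higher (adjusted p = 0.0174). The linked homeodomain genes Hmx2 and Hmx3, factors of the arcuate region, were at least 46.4-fold and at least 35.2-fold higher. With such genes set at their bounds the median of the list was again 2.05. Of the 12 genes named for the largest increases, which hold Nr5a1, Six6, Vax1 and Pmch but not Hmx2 or Hmx3, 11 kept their call without E12.5 replicate 1, 5 without E12.5 replicate 2, 9 without E12.5 replicate 3, 9 without E14.5 replicate 2, 7 without E14.5 replicate 3 and 10 without E14.5 replicate 4. With a count-based fit the calls of Isl1, Vax1, Fezf1, Nr5a1 and Six6 were lost, at adjusted p = 0.0526, 0.0609, 0.0793, 0.0752 and 0.217.

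**Figure D2:**
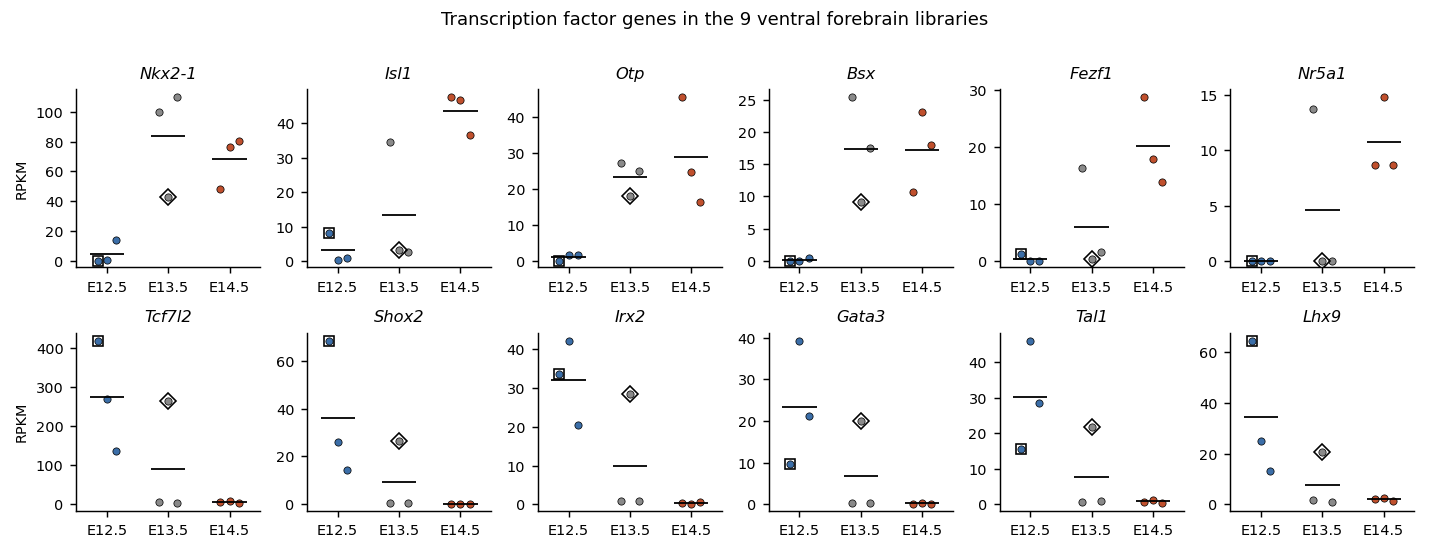
RPKM of 6 hypothalamic factors (upper row) and 6 thalamic, pretectal or GABAergic factors (lower row) in the 9 ventral forebrain libraries, by stage from E12.5 to E14.5. Points are libraries, bars are stage means, squares mark E12.5 replicate 1 and diamonds mark E13.5 replicate 5. In the lower row the diamond sits with the E12.5 libraries, as for Tcf7l2 at 5.51, 264 and 4.12 RPKM in the E13.5 libraries.

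The genes named for the largest increases also held 2 receptors and a gene related to a nuclear pore gene. Calcr, the calcitonin receptor, had 13.8, 16.0 and 19.1 RPKM in the E14.5 libraries, against 0.0801, 0.476 and 1.21 RPKM in the E12.5 libraries, and rose by 3.49 ± 0.30 (adjusted p = 0.00227). Gpr50, an orphan receptor related to the melatonin receptors and used in the hypothalamus, had 10.3, 14.51 and 12.47 RPKM in the E14.5 libraries, against 0.111, 0.233 and 0.271 RPKM in the E12.5 libraries, and rose by 3.47 ± 0.43 (adjusted p = 0.0042). Nup62cl, which resembles the gene for a nuclear pore protein, had 9.47, 14.97 and 16.2 RPKM in the E14.5 libraries, against 0.345, 0.0903 and 0.280 RPKM in the E12.5 libraries, and rose by 3.53 ± 0.66 (adjusted p = 0.0142). In all 3 genes the lowest E14.5 library lay at more than 8 RPKM and the highest E12.5 library below 2 RPKM.

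Pmch, which codes for melanin-concentrating hormone, a peptide of lateral hypothalamic neurons that promotes feeding and sleep, showed the largest fitted log2 increase of the genes named. Pmch had 37.8, 37.3 and 34.4 RPKM in the E14.5 libraries, against 1.25, 0.523 and 0.101 RPKM in the E12.5 libraries. The groups did not overlap, the means were 36.5 ± 1.83 and 0.624 ± 0.580 RPKM (SD, n = 3 each), and the change was 4.59 ± 0.51 (adjusted p = 0.00394). Without E12.5 replicate 1 it was 4.86 ± 0.56 (adjusted p = 0.00862).

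Because Pmch and Bsx rose together, their promoter windows are shown, with 250 bases before and 50 after the annotated start. They were read from RefSeq on GRCm38.p6 at chr10:88090822-88091121 (plus strand) for Pmch and chr9:40873877-40874176 (plus strand) for Bsx. Capitals mark matches to 4 short motifs on either strand of the window. Many homeodomain proteins bind the motif TAATTA, which was in 5.29% of all 32851 promoter windows. The protein made from Nkx2-1 binds the motif CTCAAG, which was in 15.9% of all windows. Proteins of the TCF and LEF family, to which Tcf7l2 belongs, bind the motif CTTTGA, which was in 16.0% of all windows. Proteins of the GATA family, to which Gata3 belongs, bind the motif AGATAA, which was in 11.2% of all windows.
Pmch: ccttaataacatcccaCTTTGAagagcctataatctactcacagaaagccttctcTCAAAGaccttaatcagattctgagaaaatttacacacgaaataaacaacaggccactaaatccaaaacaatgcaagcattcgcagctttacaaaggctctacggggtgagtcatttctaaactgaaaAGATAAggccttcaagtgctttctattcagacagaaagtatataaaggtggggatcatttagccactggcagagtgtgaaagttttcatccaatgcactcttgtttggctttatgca
Bsx: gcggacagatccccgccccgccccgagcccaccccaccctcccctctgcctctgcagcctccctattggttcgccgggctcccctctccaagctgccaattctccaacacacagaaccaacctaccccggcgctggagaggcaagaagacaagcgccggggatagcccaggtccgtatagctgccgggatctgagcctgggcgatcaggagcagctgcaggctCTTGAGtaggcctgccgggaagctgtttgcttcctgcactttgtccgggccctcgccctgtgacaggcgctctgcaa
Positions give the first base of a match, counted from the annotated start as 0. The Pmch window held the TCF and LEF motif at -234 and, on the other strand, at -195, and the GATA motif at -67. The Bsx window held the Nkx2-1 motif on the other strand at -27. A match is a description of the letters and not a site.

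Of 22 tested neuropeptide genes, Pmch among them, 6 rose (background 1.63%) and none fell, with a median of 0.74. Without E12.5 replicate 1, 4 rose and 1 fell. Pmch, Trh and Nts averaged below 1 RPKM at E12.5 and entered only through later stages. A called fall was excluded for them in advance, so these counts are a description. Trh, for the peptide that controls thyrotropin release, had 13.8, 1.38 and 3.47 RPKM in the E14.5 libraries, against 0.0713, 0.224 and 0.521 RPKM in the E12.5 libraries, and rose by 2.10 ± 0.55 (adjusted p = 0.0367). The E14.5 libraries were uneven, replicate 2 being the highest, and without E12.5 replicate 1 the adjusted p was 0.0714. Tac1, for substance P, had 11.3, 8.11 and 9.54 RPKM in the E14.5 libraries, against 1.21, 3.81 and 3.87 RPKM in the E12.5 libraries, and rose by 1.504 ± 0.30 (adjusted p = 0.0168). Nts, for neurotensin, had 3.76, 6.38 and 2.15 RPKM in the E14.5 libraries, against 0, 0.520 and 0.269 RPKM in the E12.5 libraries, and rose by 1.95 ± 0.34 (adjusted p = 0.011). All E14.5 values of both genes lay above all E12.5 values. Scg2, for a granin of dense-core vesicles, was at 52.4, 53.3 and 34.6 RPKM in the E14.5 libraries, against 6.96, 16.7 and 25.7 RPKM in the E12.5 libraries, and rose by 1.59 ± 0.39 (adjusted p = 0.0297). Cck, for cholecystokinin, rose by 1.27 ± 0.35 (adjusted p = 0.0422), with an adjusted p of 0.0738 without E12.5 replicate 1.

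Pomc, the precursor of melanocortins and an early peptide of the arcuate nucleus, had 13.51, 20.1 and 4.58 RPKM in the E14.5 libraries, against 0.892, 1.56 and 1.21 RPKM in the E12.5 libraries. All E14.5 values lay above all E12.5 values, but the change of 2.44 ± 0.81 (adjusted p = 0.0732) was not called. Pomc and Six6 are also used in the pituitary, whose 13 listed genes summed to 0.931, 14.7 and 0.373 RPKM in the E14.5 libraries, against 0.0917, 0.0568 and 0.19 RPKM in the E12.5 libraries. The hormone subunit gene Cga was at 0, 6.46 and 0 RPKM in the E14.5 libraries and at 0, 0 and 0.109 RPKM in the E12.5 libraries, and the part of pituitary tissue in these values was not tested. Avp, for vasopressin, was listed at 7.93, 1.68 and 0 RPKM in the E14.5 libraries and at 0 in the E12.5 libraries, and was not called either (adjusted p = 0.128). Npy and Sst, peptides of arcuate and other interneurons, differed by -0.02 ± 0.41 and 0.10 ± 0.61, with overlapping groups. Cartpt, a peptide of several forebrain and midbrain nuclei, had 5.35, 0 and 2.64 RPKM in the E14.5 libraries, against 0.977, 31.1 and 38.0 RPKM in the E12.5 libraries. It fell without E12.5 replicate 1, at -3.63 ± 0.64 (adjusted p = 0.0158), and was not called with it, at -2.25 ± 1.07 (adjusted p = 0.18).

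**Figure D3:**
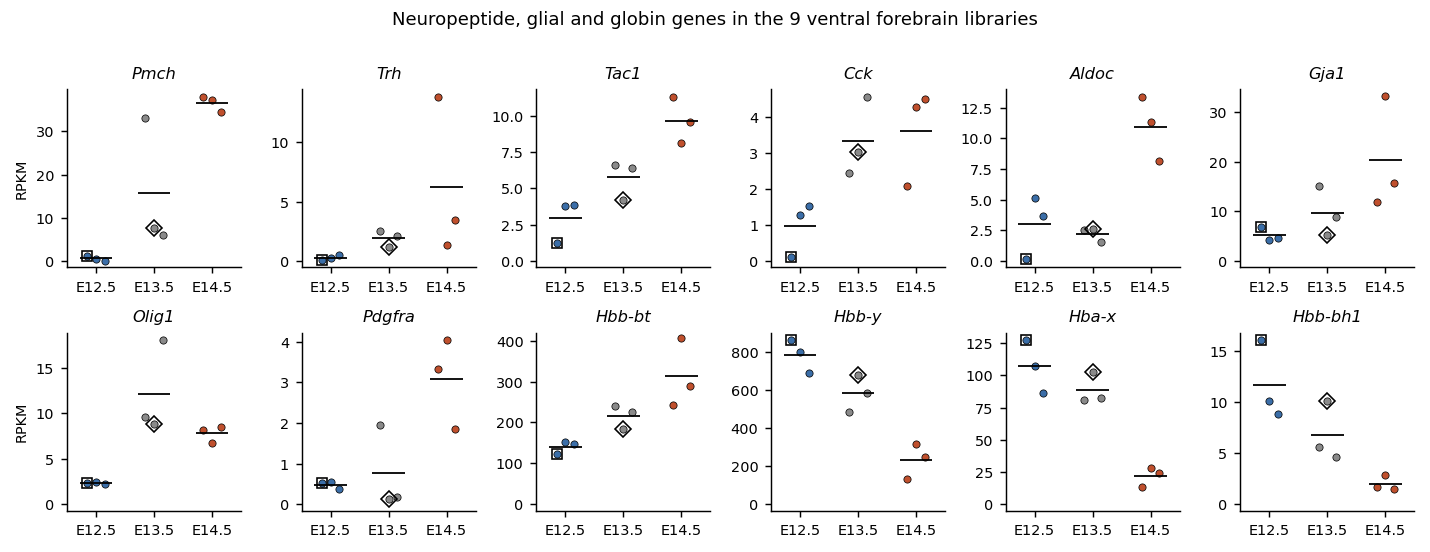
RPKM of 4 neuropeptide genes and the astroglial genes Aldoc and Gja1 (upper row), and of the oligodendrocyte lineage genes Olig1 and Pdgfra and 4 globin genes (lower row), in the 9 ventral forebrain libraries by stage. Points are libraries, bars are stage means, squares mark E12.5 replicate 1 and diamonds mark E13.5 replicate 5. Pmch is at 37.8, 37.3 and 34.4 RPKM in the E14.5 libraries, against 1.25, 0.523 and 0.101 RPKM in the E12.5 libraries, and Hbb-bt and Hbb-y move in opposite directions.

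The Dlx genes, homeodomain factors of GABAergic neurons in the prethalamus, hypothalamus and basal telencephalon, were called when E12.5 replicate 1 was left out. Dlx1 had 95.7, 58.2 and 47.5 RPKM in the E14.5 libraries, against 27.2, 0.0385 and 6.15 RPKM in the E12.5 libraries. Replicate 1 held the highest E12.5 value, the groups did not overlap, and the change was 3.46 ± 1.05 (adjusted p = 0.0566) with it and 4.58 ± 0.87 (adjusted p = 0.0188) without it. Dlx2 had 27.9, 23.0 and 16.2 RPKM in the E14.5 libraries, against 11.8, 0.129 and 1.77 RPKM in the E12.5 libraries, and changed by 2.74 ± 0.86 (adjusted p = 0.0623) with replicate 1 and 3.69 ± 0.69 (adjusted p = 0.018) without it. For Dlx5 the values were 1.90 ± 0.69 (adjusted p = 0.0954) and 2.61 ± 0.59 (adjusted p = 0.0299). Lhx6, a LIM homeodomain factor of GABAergic cells, was called either way. It had 7.63, 5.28 and 6.07 RPKM in the E14.5 libraries, against 0.0288, 0 and 0.0468 RPKM in the E12.5 libraries, and rose by 2.83 ± 0.24 (adjusted p = 0.00227). Of the 13 tested members of this list, 2 rose and none fell (background 1.63% and 0.887%), with a median of 1.02. Without E12.5 replicate 1, 5 rose and 1 fell (background 1.3% and 0.827%), with a median of 1.87. Lhx6 lay below 1 RPKM in every E12.5 library and entered only through later stages. A called fall was excluded for it in advance, so these counts are a description. The noncoding RNA Dlx6os1, chosen after its values were seen, lies at Dlx5 and Dlx6 and rose by 2.97 ± 0.71 (adjusted p = 0.028), and since the strand is not given its reads cannot be told apart from those of genes it overlaps.

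Of 12 tested thalamic genes, 5 fell (background 0.887%) and none rose, with a median log2 fold change of -2.22. When E12.5 replicate 1 was left out, 4 fell and the median was -1.38. Their summed level was 60.1, 69.4 and 69.1 RPKM in the E14.5 libraries, against 961, 434 and 253 RPKM in the E12.5 libraries, and 78.4, 456 and 98.9 RPKM in the E13.5 libraries. Such a sum gives most weight to genes of high level, and of the thalamic genes described next Tcf7l2 had the highest level at E12.5.

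Tcf7l2, the TCF factor of canonical Wnt signalling that marks thalamic neurons, had 6.89, 9.44 and 4.02 RPKM in the E14.5 libraries, against 419, 270.0 and 138 RPKM in the E12.5 libraries. The change was -5.07 ± 1.27 (adjusted p = 0.0317), and without E12.5 replicate 1, its highest library, the adjusted p was 0.0647. Shox2, a homeodomain factor of the developing thalamus, had 0, 0 and 0.101 RPKM in the E14.5 libraries, against 68.5, 25.9 and 14.2 RPKM in the E12.5 libraries, a change of -4.88 ± 1.004 (adjusted p = 0.018). Lhx9, a LIM homeodomain factor of the thalamus, had 2.19, 2.27 and 1.23 RPKM in the E14.5 libraries, against 64.5, 24.9 and 13.3 RPKM in the E12.5 libraries, a change of -3.34 ± 0.87 (adjusted p = 0.0361). The groups did not overlap in any of these genes, and E12.5 replicate 1 was the highest library in each. On mm10, Tcf7l2 lies on chromosome 19 (55741820 to 55933654, plus strand), Shox2 on chromosome 3 (66971727 to 66981771, minus strand) and Lhx9 on chromosome 1 (138825186 to 138848577, minus strand).

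Irx2 and Irx1, Iroquois factors expressed behind the border of the prethalamus, fell together. Irx2 had 0.313, 0 and 0.469 RPKM in the E14.5 libraries, against 33.7, 42.2 and 20.6 RPKM in the E12.5 libraries, a change of -4.68 ± 0.92 (adjusted p = 0.0164). Irx1 had 1.30, 4.25 and 2.38 RPKM in the E14.5 libraries, against 37.3, 47.8 and 25.3 RPKM in the E12.5 libraries, a change of -3.41 ± 0.73 (adjusted p = 0.0199). Another member, Irx3, was even across the E12.5 libraries at 16.7, 16.6 and 16.9 RPKM and fell to 4.07, 6.22 and 6.83 RPKM in the E14.5 libraries, a change of -1.43 ± 0.23 (adjusted p = 0.00993).

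Factors of GABAergic neurons in the pretectum and midbrain fell as well. Gata3 had 0.121, 0.308 and 0.104 RPKM in the E14.5 libraries, against 9.65, 39.2 and 21.1 RPKM in the E12.5 libraries, a change of -4.17 ± 0.99 (adjusted p = 0.0272). Tal1 had 0.753, 1.20 and 0.403 RPKM in the E14.5 libraries, against 15.7, 46.1 and 28.5 RPKM in the E12.5 libraries, a change of -4.02 ± 0.87 (adjusted p = 0.0208). Tal2 had 0.322, 0.821 and 1.93 RPKM in the E14.5 libraries, against 32.8, 52.2 and 20.04 RPKM in the E12.5 libraries, a change of -4.13 ± 0.87 (adjusted p = 0.0192). In these 3 genes E12.5 replicate 2 was the highest, and no E14.5 library reached 2 RPKM. On mm10, Gata3 lies on chromosome 2 (9857078 to 9890034, minus strand) and Tal1 on chromosome 4 (115056426 to 115071755, plus strand). Gata2 and Zfpm1, a GATA factor and a GATA cofactor chosen after their values were seen, changed by -3.22 ± 0.80 (adjusted p = 0.0306) and -1.81 ± 0.35 (adjusted p = 0.0159).

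Further factors of the same level of change were Tfap2d, an AP-2 factor (-4.08 ± 1.02 (adjusted p = 0.0318)), and Bhlhe23, a basic helix-loop-helix factor (-3.64 ± 0.87 (adjusted p = 0.0281)). Esrrb, an orphan nuclear receptor, had 0.0849, 0 and 0.0728 RPKM in the E14.5 libraries, against 17.2, 17.6 and 7.76 RPKM in the E12.5 libraries, a change of -3.77 ± 0.89 (adjusted p = 0.0273). C1ql4, which codes for a secreted protein of the C1q family, had 0.491, 0 and 0.420 RPKM in the E14.5 libraries, against 9.98, 35.4 and 26.3 RPKM in the E12.5 libraries, a change of -4.11 ± 0.86 (adjusted p = 0.0187). Pou4f1, the POU factor of habenular neurons, had 0.309, 0.262 and 0.441 RPKM in the E14.5 libraries, against 4.27, 13.4 and 8.12 RPKM in the E12.5 libraries, a change of -2.73 ± 0.49 (adjusted p = 0.0127). Ebf1, a helix-loop-helix factor of young neurons, had 5.64, 6.10 and 5.64 RPKM in the E14.5 libraries, against 38.9, 42.0 and 25.04 RPKM in the E12.5 libraries, a change of -2.39 ± 0.37 (adjusted p = 0.00842). No E14.5 value of these genes reached the lowest E12.5 value. Of the 12 genes named for the largest decreases, none kept its call with a count-based fit or without E12.5 replicate 2, 1 kept it without E14.5 replicate 3, 4 without E14.5 replicate 4, 6 without E14.5 replicate 2, 7 without E12.5 replicate 1 and 8 without E12.5 replicate 3.

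Shox2 and Tal1 represent the thalamic and the GABAergic factors, and their promoter windows, with the same motifs in capitals, were read from RefSeq on GRCm38.p6 at chr3:66981722-66982021 (minus strand) for Shox2 and chr4:115056176-115056475 (plus strand) for Tal1.
Shox2: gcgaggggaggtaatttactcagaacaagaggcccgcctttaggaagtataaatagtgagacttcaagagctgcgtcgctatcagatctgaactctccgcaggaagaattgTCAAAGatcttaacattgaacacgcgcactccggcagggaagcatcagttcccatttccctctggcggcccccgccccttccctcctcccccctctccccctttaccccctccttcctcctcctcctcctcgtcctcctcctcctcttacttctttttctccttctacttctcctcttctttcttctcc
Tal1: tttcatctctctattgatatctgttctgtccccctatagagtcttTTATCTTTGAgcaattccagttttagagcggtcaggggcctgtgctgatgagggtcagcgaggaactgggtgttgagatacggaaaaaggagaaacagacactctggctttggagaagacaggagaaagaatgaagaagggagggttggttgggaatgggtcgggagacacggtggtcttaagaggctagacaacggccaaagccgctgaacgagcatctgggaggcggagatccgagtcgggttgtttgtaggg
The Shox2 window held the TCF and LEF motif on the other strand at -139. The Tal1 window held the GATA motif on the other strand at -205 and the TCF and LEF motif at -201, which overlap and make 1 run of capitals.

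Without E12.5 replicate 1, a set of genes high in E12.5 replicates 2 and 3 passed the test. Foxa2, the forkhead factor of the floor plate and of midbrain dopaminergic progenitors, had 0.900, 0.917 and 0.848 RPKM in the E14.5 libraries, against 0.143, 16.9 and 21.5 RPKM in the E12.5 libraries. The change was -3.41 ± 0.26 (adjusted p = 0.00326) without replicate 1 and -2.03 ± 0.93 (adjusted p = 0.169) with it. Shisa3, an inhibitor of Wnt and Fgf receptors, had 0.832, 0 and 0.0891 RPKM in the E14.5 libraries, against 0.0549, 26.7 and 24.4 RPKM in the E12.5 libraries, and changed by -4.40 ± 0.44 (adjusted p = 0.00636) without replicate 1 and -2.85 ± 1.09 (adjusted p = 0.109) with it. In both, replicate 1 was below 1 RPKM, like the E14.5 libraries. Tfap2b, an AP-2 factor of midbrain GABAergic neurons, had 0.185, 0.157 and 0.0529 RPKM in the E14.5 libraries, against 1.58, 59.0 and 20.3 RPKM in the E12.5 libraries, and changed by -4.98 ± 1.25 (adjusted p = 0.038) without replicate 1 and -3.72 ± 1.36 (adjusted p = 0.0965) with it. C1ql1 and Rpp25 gave -3.13 ± 0.23 (adjusted p = 0.00326) and -2.84 ± 0.75 (adjusted p = 0.0438) without replicate 1. The engrailed genes En1 and En2, markers of the midbrain, were at 0.302, 0 and 0 and 0.331, 0.281 and 0 RPKM in the E14.5 libraries, against 0.0399, 2.76 and 2.30 and 0.0873, 2.29 and 1.77 RPKM in the E12.5 libraries, and fell without replicate 1, with changes of -1.69 ± 0.22 (adjusted p = 0.00905) and -1.34 ± 0.23 (adjusted p = 0.0154). Other midbrain markers had higher means at E14.5 than at E12.5. Lmx1a averaged 22.9 ± 9.17 against 16.8 ± 23.0 RPKM, and Th 8.54 ± 1.49 against 4.47 ± 2.16 RPKM (SD, n = 3 each). Of a list of 19 midbrain and hindbrain genes, 5 were tested with all 9 libraries and none was called, with a median of 0.87. Without replicate 1, 3 of 7 tested fell (background 0.827%), with a median of -0.87.

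In the other direction, Sox2, a factor of neural progenitors, had 70.4, 82.3 and 88.2 RPKM in the E14.5 libraries, against 79.0, 25.6 and 31.8 RPKM in the E12.5 libraries, where replicate 1 was the highest. It rose by 1.45 ± 0.20 (adjusted p = 0.0093) without replicate 1 and was not called with it, at 0.98 ± 0.36 (adjusted p = 0.0988). Its host transcript Sox2ot overlaps it, and because the strand of the libraries is not given the reads of the overlapping part cannot be told apart. It changed by 1.57 ± 0.34 (adjusted p = 0.0258) without replicate 1. Pbk, a mitotic kinase, had 10.3, 12.3 and 18.1 RPKM in the E14.5 libraries, against 16.3, 3.81 and 4.38 RPKM in the E12.5 libraries, and changed by 1.48 ± 0.32 (adjusted p = 0.0267) without replicate 1 and 0.90 ± 0.48 (adjusted p = 0.228) with it.

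Signalling genes showed single members on either side rather than whole pathways. Of 27 tested Wnt genes, 1 rose and 2 fell (background 1.63% and 0.887%). Fzd5, a Wnt receptor of the eye field and hypothalamus, had 4.74, 8.30 and 5.78 RPKM in the E14.5 libraries, against 0.0755, 0.142 and 0.0980 RPKM in the E12.5 libraries, and rose by 2.69 ± 0.51 (adjusted p = 0.0145). Fzd1, another Wnt receptor, had 8.24, 12.8 and 11.47 RPKM in the E14.5 libraries, against 48.4, 50.1 and 33.8 RPKM in the E12.5 libraries, a change of -1.93 ± 0.30 (adjusted p = 0.00877). The other gene of this list that fell was Tcf7l2. Hes1, the effector of Notch signalling that keeps progenitors from becoming neurons, had 13.7, 16.5 and 13.51 RPKM in the E14.5 libraries, against 3.62, 4.22 and 5.43 RPKM in the E12.5 libraries, and rose by 1.53 ± 0.19 (adjusted p = 0.00423). Hey2, a related effector, rose by 1.05 ± 0.24 (adjusted p = 0.0235), and these were the 2 of 19 Notch genes called. The change of Hey2 was 0.81 and not called without E12.5 replicate 1, which left 1 of the 19. Spry1, a feedback inhibitor of Fgf signalling, had 7.74, 7.10 and 8.62 RPKM in the E14.5 libraries, against 1.64, 3.25 and 3.62 RPKM in the E12.5 libraries, and rose by 1.24 ± 0.29 (adjusted p = 0.0262), but without E12.5 replicate 1 its change was 0.99 and not called. Tgfbr2, a TGF-beta receptor, rose by 1.01 ± 0.28 (adjusted p = 0.0419), with an adjusted p of 0.0668 without E12.5 replicate 1. None of the 16 tested hedgehog genes was called.

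Of 36 tested axon guidance genes, 5 rose (background 1.63%) and 3 fell (background 0.887%), with a median of -0.11. Plxnc1, a semaphorin receptor, had 39.3, 33.2 and 30.9 RPKM in the E14.5 libraries, against 12.7, 15.9 and 15.03 RPKM in the E12.5 libraries, and rose by 1.19 ± 0.15 (adjusted p = 0.00403). Efna5, a membrane-bound ephrin ligand, had 17.6, 17.5 and 17.5 RPKM in the E14.5 libraries, against 7.43, 5.92 and 4.94 RPKM in the E12.5 libraries, and rose by 1.40 ± 0.23 (adjusted p = 0.00993). Sema3f, a secreted semaphorin that repels axons, had 9.41, 11.4 and 10.8 RPKM in the E14.5 libraries, against 32.9, 29.1 and 24.6 RPKM in the E12.5 libraries, a change of -1.37 ± 0.19 (adjusted p = 0.00593). The groups of these 3 genes did not overlap. The neuropilins Nrp1 and Nrp2, receptors for secreted semaphorins, rose by 1.31 ± 0.26 (adjusted p = 0.0168) and 1.62 ± 0.46 (adjusted p = 0.0462), the second with an adjusted p of 0.0676 without E12.5 replicate 1. Robo3, which lets commissural axons cross the midline, had 3.74, 4.66 and 6.94 RPKM in the E14.5 libraries, against 7.02, 18.6 and 29.6 RPKM in the E12.5 libraries, a change of -1.498 ± 0.41 (adjusted p = 0.0422).

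Genes of glial cells rose in part. Of 20 tested astroglial genes, 5 rose and none fell (background 1.63% and 0.887%), and 4 rose without E12.5 replicate 1 (background 1.3%). All E14.5 libraries lay above all E12.5 libraries for 13 of them, which was so for 21.5% of all genes tested, and the median was 1.09. Aldoc, an aldolase of astrocytes and radial glia, had 13.4, 11.3 and 8.20 RPKM in the E14.5 libraries, against 0.176, 5.11 and 3.67 RPKM in the E12.5 libraries, and rose by 1.87 ± 0.52 (adjusted p = 0.0433). Gja1, which codes for the gap junction protein connexin 43, had 11.9, 33.1 and 15.8 RPKM in the E14.5 libraries, against 6.84, 4.29 and 4.59 RPKM in the E12.5 libraries, and rose by 1.66 ± 0.41 (adjusted p = 0.0299). Mt1, a metallothionein, had 4.997, 6.36 and 5.89 RPKM in the E14.5 libraries, against 1.48, 0.691 and 0.803 RPKM in the E12.5 libraries, and rose by 1.78 ± 0.29 (adjusted p = 0.00993). The bicarbonate carrier Slc4a4 rose by 1.16 ± 0.20 (adjusted p = 0.0117). Gja1 is also made by meningeal cells. The summed level of 19 pericyte and meningeal genes was 108, 307 and 185 RPKM in the E14.5 libraries, against 84.6, 70.0 and 66.8 RPKM in the E12.5 libraries, with 1 of 18 tested members called, and its part in the glial result was not tested.

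Of 11 tested genes of the oligodendrocyte lineage, 3 rose and none fell (background 1.63% and 0.887%), with a median of 0.31. Without E12.5 replicate 1, 2 rose (background 1.3%). Olig1, a basic helix-loop-helix factor of the lineage, had 8.12, 6.75 and 8.47 RPKM in the E14.5 libraries, against 2.33, 2.44 and 2.20 RPKM in the E12.5 libraries, and rose by 1.40 ± 0.23 (adjusted p = 0.00993). Pdgfra, the growth factor receptor of oligodendrocyte precursors, had 3.34, 4.03 and 1.86 RPKM in the E14.5 libraries, against 0.511, 0.551 and 0.377 RPKM in the E12.5 libraries, and rose by 1.42 ± 0.37 (adjusted p = 0.0348). Its adjusted p was 0.0597 without E12.5 replicate 1. Every E12.5 library was below 1 RPKM, so Pdgfra entered only through later stages and could not be called as fallen. Pdgfra is also made by mesenchymal cells of the meninges, whose genes moved as given above. Rlbp1, a retinoid-binding protein of retinal and radial glia listed with choroid plexus and eye genes, had 10.3, 9.76 and 8.88 RPKM in the E14.5 libraries, against 1.93, 3.13 and 2.46 RPKM in the E12.5 libraries, and rose by 1.61 ± 0.16 (adjusted p = 0.00356). It was the 1 gene called among 5 tested members of that list.

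Embryonic globin transcripts fell and those of adult-type beta globins rose. Of 11 tested erythroid genes, 2 rose and 4 fell (background 1.63% and 0.887%), with the same counts without E12.5 replicate 1. Hba-x, the embryonic alpha-like globin, had 13.2, 27.7 and 24.3 RPKM in the E14.5 libraries, against 128, 107 and 86.2 RPKM in the E12.5 libraries, a change of -2.29 ± 0.25 (adjusted p = 0.00356). Hbb-y, an embryonic beta-like globin, had 129, 315 and 246 RPKM in the E14.5 libraries, against 863, 799 and 689 RPKM in the E12.5 libraries, a change of -1.85 ± 0.28 (adjusted p = 0.00814). Hbb-bh1, the other embryonic beta-like globin, changed by -2.07 ± 0.30 (adjusted p = 0.00674). The 2 adult-type beta genes rose, while none of the 4 listed entries of the adult-type alpha genes Hba-a1 and Hba-a2 was called. Hbb-bt had 243, 406 and 289.6 RPKM in the E14.5 libraries, against 123, 153 and 147 RPKM in the E12.5 libraries, a change of 1.12 ± 0.18 (adjusted p = 0.00964). Hbb-bs changed by 1.18 ± 0.14 (adjusted p = 0.00403). Hbb-bt and Hbb-bs are near-identical copies, so the split of reads between them is uncertain. The remaining gene that fell was Slc4a1, the anion exchanger of red cells, at -1.10 ± 0.20 (adjusted p = 0.0132). The summed level of the list was 2010.0, 3250.0 and 2620.0 RPKM in the E14.5 libraries, against 3180.0, 3290.0 and 2810.0 RPKM in the E12.5 libraries.

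The windows of Hbb-bt and Hbb-y show both sides of this exchange, read from RefSeq on GRCm38.p6 at chr7:103813874-103814173 (minus strand) and chr7:103853158-103853457 (minus strand). Capitals mark, on either strand, matches to the GATA motif given above and to a pair of further motifs. Proteins of the KLF family, among them the erythroid factor Klf1, bind the motif CACCC, which was in 57.5% of all promoter windows. The ubiquitous factor NF-Y binds the motif CCAAT, which was in 37.4% of all promoter windows.
Hbb-bt: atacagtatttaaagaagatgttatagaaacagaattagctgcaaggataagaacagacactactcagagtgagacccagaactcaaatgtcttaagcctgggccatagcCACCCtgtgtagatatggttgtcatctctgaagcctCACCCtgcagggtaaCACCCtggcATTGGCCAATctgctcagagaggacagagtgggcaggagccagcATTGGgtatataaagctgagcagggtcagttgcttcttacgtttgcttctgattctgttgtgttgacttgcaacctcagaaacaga
Hbb-y: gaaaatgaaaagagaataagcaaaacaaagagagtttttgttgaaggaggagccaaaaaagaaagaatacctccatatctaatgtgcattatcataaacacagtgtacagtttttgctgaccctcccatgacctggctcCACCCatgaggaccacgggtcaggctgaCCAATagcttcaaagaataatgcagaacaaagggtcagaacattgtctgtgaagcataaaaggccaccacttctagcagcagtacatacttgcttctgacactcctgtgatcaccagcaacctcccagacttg
The Hbb-bt window held the KLF motif at -140, -104 and -89. It held the NF-Y motif at -75 and, on the other strand, at -80 and -36. The Hbb-y window held the KLF motif at -111 and the NF-Y motif at -83. The GATA motif in the form AGATAA was not among the letters of either window, and other forms were not searched.

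Few neuronal genes were called. Among 18 tested GABA genes 2 rose, among 20 glutamate genes 1 rose (background 1.63%), and among 25 ion channel genes and 24 genes of the axonal cytoskeleton 1 fell in each (background 0.887%). Their medians were 0.34, -0.01, -0.06 and -0.13. Gabra5, a subunit of extrasynaptic GABA receptors, had 14.45, 15.5 and 13.6 RPKM in the E14.5 libraries, against 0.611, 3.48 and 4.31 RPKM in the E12.5 libraries, and rose by 2.20 ± 0.43 (adjusted p = 0.0162). Gabrg1, another subunit, rose by 1.07 ± 0.19 (adjusted p = 0.013). Gria1, an AMPA receptor subunit, rose by 1.0 ± 0.28 (adjusted p = 0.0419), a call lost in 15 of 16 other settings, and was at 0.75 ± 0.25 (adjusted p = 0.0835) without E12.5 replicate 1. Camk2a, the kinase of the postsynaptic density, rose by 1.07 ± 0.24 (adjusted p = 0.0223). Sncg, for gamma-synuclein, had 6.27, 1.23 and 2.48 RPKM in the E14.5 libraries, against 15.7, 35.5 and 25.7 RPKM in the E12.5 libraries, a change of -2.72 ± 0.65 (adjusted p = 0.0281). Cplx1, for a complexin of the synaptic vesicle cycle, changed by -1.04 ± 0.29 (adjusted p = 0.0437), and Cacna1g, a T-type calcium channel, by -1.13 ± 0.24 (adjusted p = 0.0202). Dpf3, a subunit of the BAF chromatin complex of neurons, was at 6.32, 3.69 and 4.48 RPKM in the E14.5 libraries, against 12.6, 13.0 and 9.90 RPKM in the E12.5 libraries, a change of -1.15 ± 0.18 (adjusted p = 0.00855).

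Proliferation genes were not called. None of 33 mitosis genes and none of 30 replication genes passed the test, with medians of 0.24 and 0.09. The summed mitosis level was 234, 331 and 441 RPKM in the E14.5 libraries, against 618, 172 and 201 RPKM in the E12.5 libraries, so that E12.5 replicate 1 lay above and the other E12.5 libraries below all E14.5 libraries. Without replicate 1, 2 of the mitosis genes rose (background 1.3%), Kif11 and Nuf2, and the median was 0.73. Of 16 tested proneural genes 1 rose (background 1.63%), Olig1. None of 33 ribosomal protein genes was called. Microglial and endothelial genes were not called either (15 and 17 tested). The E14.5 libraries lay all above the E12.5 libraries for 10 and 11 of them, which was so for 21.5% of all genes tested. Nfib, a nuclear factor I protein of the later, gliogenic phase, had 19.1, 23.6 and 21.2 RPKM in the E14.5 libraries, against 5.31, 12.4 and 12.45 RPKM in the E12.5 libraries, and rose by 1.09 ± 0.27 (adjusted p = 0.0305). The change was 0.73 and no longer called without E12.5 replicate 1, its lowest library, and 8 of 16 other settings lost the call.

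The day between E12.5 and E13.5 carried few calls. The 29 hypothalamic factors had a median log2 fold change of 1.55 in this step, and 2 rose (background 0.0739%). In the next step their median was 0.04, and 1 rose (background 0.48%). Over all genes tested the medians were 0.05 and 0.006. Nkx2-1 averaged 4.83 ± 7.85, 84.0 ± 36.0 and 68.3 ± 17.5 RPKM at E12.5, E13.5 and E14.5 (SD, n = 3 each), and was not called in the first step. At E13.5 relative to E12.5, 10 genes rose (0.0739%) and 1 fell (0.00739%), and all 11 were also called over both days. Bsx, Otp, Calcr and Lhx6 were among them. Bsx had 0, 0 and 0.529 RPKM at E12.5, 25.3, 9.17 and 17.5 RPKM at E13.5 and 10.7, 23.0 and 18.0 RPKM at E14.5, a first step of 3.89 ± 0.37 (adjusted p = 0.00856) and a second of 0.04 ± 0.37. Calcr had 16.4, 8.22 and 15.4 RPKM in the E13.5 libraries, with a first step of 3.18 ± 0.30 (adjusted p = 0.00856). Lhx6 had 9.45, 4.45 and 4.89 RPKM in the E13.5 libraries, with a first step of 2.76 ± 0.24 (adjusted p = 0.00856). In each of these genes every E13.5 library lay above every E12.5 library, and replicate 5 was the lowest of its stage. Also called in this step were Olig1 (1.92 ± 0.23 (adjusted p = 0.0287)) and Plxna2, a plexin, which fell (-1.24 ± 0.17 (adjusted p = 0.0489)), and the imprinted genes Asb4 (2.16 ± 0.27 (adjusted p = 0.0297)) and Magel2 (1.92 ± 0.24 (adjusted p = 0.0297)). Foxb2, a forkhead factor, and Irs4, an insulin receptor substrate of the hypothalamus, were chosen after their values were seen and rose by 2.64 ± 0.36 (adjusted p = 0.0467) and 1.84 ± 0.21 (adjusted p = 0.0287). Without E12.5 replicate 1, 5 genes rose and 5 fell in this step, and of the 11 calls 5 were kept, those of Bsx, Otp, Calcr, Lhx6 and Irs4, while Olig1 and Magel2 (adjusted p = 0.0609 each), Asb4 (0.0738), Foxb2 and Plxna2 (0.0757 each) lost theirs. The count moved with other single libraries as well. It was 49 without E13.5 replicate 5, 0 without E12.5 replicate 2, 1 without E13.5 replicate 4, 6 without E13.5 replicate 6, 5 without E14.5 replicate 2, 3 without E14.5 replicate 3 and 3 without E14.5 replicate 4. With E12.5 replicate 1 and E13.5 replicate 5 both set aside, a setting chosen after seeing the data, it was 95 (0.7%), of which 65 fell (0.479%).

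The E13.5 libraries differed among themselves along the same genes. Replicate 4 had the highest levels of anterior and tuberal factors, with Nr5a1 at 13.7, 0.0413 and 0.0386, Vax1 at 10.7, 0.225 and 0 and Fezf1 at 16.2, 0.366 and 1.51 RPKM in replicates 4, 5 and 6. Replicate 6 had the highest levels of posterior, mammillary factors, chosen after their values were seen. Barhl1 was at 44.1, 46.5 and 79.0 RPKM and Dbx1 at 66.2, 63.1 and 156 RPKM. Six3 was at 12.52, 10.1 and 0.280 RPKM and thus lowest in replicate 6. Replicate 5 had the levels of E12.5 for Shox2 (0.461, 26.4 and 0.694), Irx2 (0.799, 28.4 and 0.734) and Gata3 (0.206, 20.01 and 0.177 RPKM).

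At E14.5 relative to E13.5, 65 genes rose (0.48%) and 75 fell (0.554%). Nup62cl rose by 2.52 ± 0.66 (adjusted p = 0.0361), Fzd5 by 1.74 ± 0.51 (adjusted p = 0.0488) and Tbx3 by 1.57 ± 0.41 (adjusted p = 0.0352). Aldoc had 2.49, 2.58 and 1.57 RPKM in the E13.5 libraries and rose by 1.89 ± 0.52 (adjusted p = 0.0415) in this step, and Mt1 and Scg2 rose by 1.19 ± 0.29 (adjusted p = 0.0296) and 1.33 ± 0.39 (adjusted p = 0.0492). None of these 3 genes was called in the first step. Sox1, a progenitor factor related to Sox2, had 29.3, 30.9 and 21.3 RPKM in the E14.5 libraries, against 19.7, 8.25 and 4.46 RPKM in the E13.5 libraries, and rose by 1.45 ± 0.40 (adjusted p = 0.0425). Among the genes that fell were Hba-x (-2.03 ± 0.25 (adjusted p = 0.00776)), Hbb-y (-1.41 ± 0.28 (adjusted p = 0.0164)), Irx3 (-1.49 ± 0.23 (adjusted p = 0.00955)) and Robo3 (-1.68 ± 0.41 (adjusted p = 0.0298)). No gene of at least 5 RPKM was called in opposite directions in the 2 steps. With E12.5 replicate 1 left out, 90 rose and 90 fell. The count of 140 moved to 228 without E13.5 replicate 4, 32 without E13.5 replicate 5, 24 without E13.5 replicate 6, 86 without E14.5 replicate 2 and 69 without E14.5 replicate 3.

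The alar plate, the dorsal part of the neural wall, and the ventral hindbrain were sequenced in the same run as the ventral forebrain at each stage, with 3 libraries per stage each. An effect of the run that is the same in all regions cancels when their mean change is subtracted from that of the ventral forebrain. In this difference 173 of 14042 genes were higher (1.23%) and 77 lower (0.548%). Of the 220 genes that rose in the ventral forebrain, 101 were also higher in the difference, 45.9% of the 220 and 58.4% of the 173. Of the 120 that fell, 44 were also lower, 36.7% of the 120 and 57.1% of the 77. Both fits hold the same ventral forebrain libraries. Leaving out E12.5 replicate 1, the difference held 268 higher (1.91%) and 167 lower genes (1.19%). The 250 calls in all became 102 without E12.5 replicate 2, 113 without E14.5 replicate 3 and 47 in the count-based fit.

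Of the 29 hypothalamic factors, 15 were higher in the difference and none was lower (background 1.23% and 0.548%). Members that entered only through later stages of the ventral forebrain make these counts a description as well. Only 15 of the 29 reached a mean of 1 RPKM at E12.5 or E14.5 in the alar plate, and 14 in the ventral hindbrain, so the difference of the others is mostly the change in the ventral forebrain itself. Nkx2-1 averaged 68.3 ± 17.5 RPKM at E14.5 and 4.83 ± 7.85 RPKM at E12.5 in the ventral forebrain, 0.0183 ± 0.0318 and 0.00858 ± 0.0149 RPKM in the alar plate, and 0 ± 0 and 0.735 ± 1.19 RPKM in the ventral hindbrain (SD, n = 3 each). The difference of changes was 4.84 ± 0.74 (adjusted p = 0.00129). For Bsx it was 3.94 ± 0.31 (adjusted p = 1.03e-07), for Lhx6 2.81 ± 0.22 (adjusted p = 1.03e-07), for Pmch 4.84 ± 0.54 (adjusted p = 4.04e-05) and for Otp 4.43 ± 0.66 (adjusted p = 0.00103). Dlx1, at 4.19 ± 1.14 (adjusted p = 0.047), was called in the difference though not within the ventral forebrain, and lost this call in 26 of 35 other settings (highest adjusted p = 0.463). Its change was -1.42 in the alar plate, where the E14.5 libraries reached at most 0.388 RPKM and the E12.5 libraries had 0.0582, 0.239 and 21.4 RPKM in order of size, and -0.04 in the ventral hindbrain, neither called. The thalamic list had 4 of 12 members lower (background 0.548%). Its median changes were -2.22 in the ventral forebrain, -0.004 in the alar plate and -0.21 in the ventral hindbrain. Tcf7l2 differed by -5.21 ± 1.15 (adjusted p = 0.0159) and Irx2 by -4.63 ± 0.76 (adjusted p = 0.00226).

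Progenitor factors of the SoxB family differed between the regions as well. Sox3, a partner of Sox2, averaged 11.7 ± 0.278 RPKM at E14.5 and 6.08 ± 1.40 RPKM at E12.5 in the ventral forebrain, and 8.29 ± 0.0619 and 20.3 ± 1.11 RPKM in the alar plate (SD, n = 3 each), with a difference of changes of 1.81 ± 0.36 (adjusted p = 0.00933). For Sox1 and Sox2 it was 1.85 ± 0.44 (adjusted p = 0.0259) and 1.76 ± 0.47 (adjusted p = 0.0415), and for Hes1 1.94 ± 0.41 (adjusted p = 0.0134). The Notch receptor Notch2 gave 1.27 ± 0.22 (adjusted p = 0.00372). A positive difference also holds any fall in the other 2 regions. The 19 SoxB and radial glia genes had median changes of 0.11 in the ventral forebrain, -0.55 in the alar plate and -0.32 in the ventral hindbrain. For the 19 Notch genes these medians were -0.17, -0.50 and -0.50. Sox2 was not called within the ventral forebrain over the 9 libraries. Mitosis genes had a median change of 0.24 in the ventral forebrain, -1.36 in the alar plate and -0.77 in the ventral hindbrain, with 0, 25 and 0 of 33 called lower. In the alar plate 1.89% of all genes tested were called higher and 1.94% lower, and in the ventral hindbrain 0.605% and 0.499%. The median difference was 1.31 and none of the 33 was called in it. Among GABA genes the median was 0.34 in the ventral forebrain, 0.93 in the alar plate and 0.68 in the ventral hindbrain, with 2, 8 and 2 of 18 called higher. Cplx1, of the synaptic vesicle cycle, was lower in the difference (-1.63 ± 0.34 (adjusted p = 0.0122)).

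**Figure D4:**
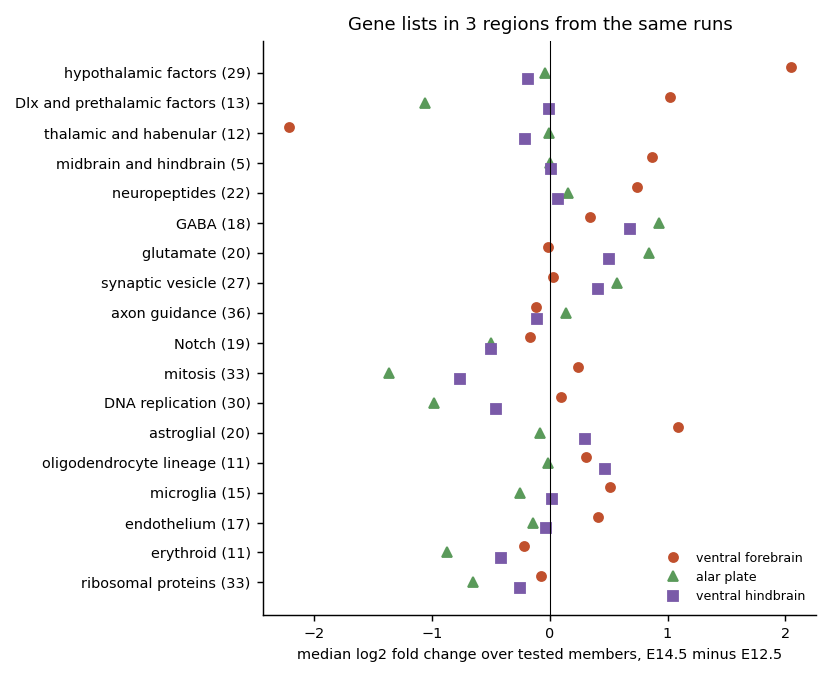
Median log2 fold change, E14.5 minus E12.5, of 18 gene lists in the ventral forebrain (circles), the alar plate (triangles) and the ventral hindbrain (squares), with the number of tested members in brackets. The ventral forebrain stands to the right for the hypothalamic factors at 2.05 and to the left for the thalamic genes at -2.22, and the mitosis genes are at -1.36 in the alar plate.

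Some changes were shared by the 3 regions. Called in each of them were 12 genes that rose and 7 that fell. Among those that rose were Aldoc, Tac1 and Gabra5, and among those that fell were the embryonic globins Hba-x, Hbb-y and Hbb-bh1. Hba-x changed by -2.29 in the ventral forebrain, -3.02 in the alar plate and -2.24 in the ventral hindbrain, and its difference of changes was not called (0.34 ± 0.40 (adjusted p = 0.655)). For Aldoc the changes were 1.87, 1.87 and 2.01, with a difference of -0.07 ± 0.61 (adjusted p = 0.959).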

How the data were processed

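Total RNA from dissected brain pieces was purified with the RNeasy kit and sequenced as TruSeq libraries, per the labels. The deposited values are RPKM per listed transcript, which the authors computed from reads mapped with Bowtie to mm10, per the submitters' processing notes. For the aligner's version, the read counter, the annotation, filters and strand, the entry is: not given in the sources used here. The unit was read from the values: multiplied by transcript length and library total, 100.0% of values were whole reads (relative tolerance 1e-06). An RPKM depends on what else is in the library, so it is a share and not an amount.

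Genes whose mean reached 1 RPKM in any group of a fit were tested with limma 3.58.1 in R 4.3.3 (mean-variance trend, log2 of RPKM + 1, Benjamini-Hochberg adjustment over all genes tested). The pseudocount of 1 understates changes of low genes. The 9 ventral forebrain libraries shared 1 estimate of spread for the comparisons of stages, and the difference between regions used 27 libraries. Of 24378 listed features, 13529 were tested. The script was checked on simulated data. A count of 0 reads allows up to 3 reads, 0.258 to 0.378 reads per 1000000 at E12.5 and E13.5 and 0.515 to 3.06 at E14.5, for counting error only.

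Named genes were up to 12 in each direction with the largest called change, a mean of at least 5 RPKM and groups that did not overlap, up to 6 in each direction called without E12.5 replicate 1 but not with it, up to 3 called members with the smallest adjusted p per list, plus members whose role is needed, and up to 6 in each direction in the difference between regions. Predicted genes were passed over. The ventral forebrain libraries, the lists and this rule were chosen with earlier results of these data known. Positions are from GENCODE vM21, and promoter windows from RefSeq, where 55 of 74 named genes had one. Alternatives were voom on recovered reads, a pseudocount of 0.1, no filter on low values, upper-quartile scaling, a replicate block, the stages compared alone, other regions in the difference, leaving out each library, and 2 libraries set aside, the last chosen after seeing the data. Some genes that the rules would name are not reported here.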

Additional observations from a re-analysis of the deposited data

Results flagged for a closer look

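Of the 250 genes called, 12 were named by rule, those with the largest differences, 6 in each direction. For these 12 genes the change of the ventral forebrain differed from the mean change of the alar plate and the ventral hindbrain by the test of the difference itself, with a mean of at least 5 RPKM in the ventral forebrain at E12.5 or E14.5. The differences of changes (log2) were positive for Nkx2-1 (4.84), Pmch (4.84), Fezf1 (4.56), Isl1 (4.51), Otp (4.43) and Dlx1 (4.19), and their adjusted p from limma ran from 4.04e-05 for Pmch to 0.047 for Dlx1. They were negative for Tcf7l2 (-5.21), Irx2 (-4.63), Tfap2d (-4.45), Shox2 (-4.37), Tal1 (-3.97) and Gata3 (-3.77), with adjusted p from 0.00226 for Irx2 to 0.0239 for Gata3. Of the 12, 11 were also called within the ventral forebrain, Dlx1 being the exception. In the count-based fit Pmch kept its call and the other 11 lost it. Against the alar plate alone all 12 kept their call, while against the ventral hindbrain alone 4 kept it and 8 lost it. The territory in the piece and the stage cannot be told apart.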

How the results depend on the processing

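Over both days, leaving out 1 library gave 116 to 337 calls, the lowest without E12.5 replicate 2, and the other settings gave 286 to 451. For the first day, no filter on low values left 3 calls, the 2 stages alone 0 (1999 genes had an unadjusted p below 0.05), a pseudocount of 0.1 gave 4, voom 0 (2570 unadjusted) and 2 libraries set aside 95. Leaving out 1 library gave 0 to 49. The 0 without E12.5 replicate 2 stood beside 1067 genes at an unadjusted p below 0.05. For the second day, no filter left 93 calls, voom 88 and 2 libraries set aside 88, and leaving out 1 library gave 24 to 228. In the difference between regions, all 4 other regions gave 457 calls, the ventral hindbrain alone 82 and voom 47, and leaving out 1 library gave 102 to 435. The causes were not tested. Of 1184 values of the 74 named genes over both days under these settings, none reversed, 946 kept their call or its absence, 198 lost a call and 40 gained one. Calls of 24 genes held under every setting, among them Bsx, Calcr, Pmch, Otp, Lhx6, Hes1 and Hba-x. In the difference only Pmch of 12 genes held under every setting. Equal replicate numbers link 3 pairs, E12.5 and E14.5 replicates 2 and 3, whose deviations correlated at 0.203 and -0.064, and E13.5 and E14.5 replicate 4, at -0.213, so the pairing is not established. With the replicate number as a block there were 318 calls over both days, 34 on the first day, 0 on the second (1302 genes at an unadjusted p below 0.05) and 270 in the difference. E14.5 replicate 3, at 979197 reads, sets the limit for low genes.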

Other observations

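Imprinted genes are expressed from the copy of 1 parent. They were looked at after their values had been seen, so the counts are a description. Of 44 tested members of a list of 54 imprinted genes, 12 rose and none fell (background 1.63% and 0.887%), and 37 had a positive change, with a median of 0.56, beside 0.05 over all genes tested. In the alar plate 2 rose and 3 fell (background 1.89% and 1.94%), with a median of -0.04. In the ventral hindbrain none was called (background 0.605% and 0.499%) and the median was 0.00. The difference of changes was called higher for 13 members and lower for none (background 1.23% and 0.548%).

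Peg10, a gene derived from a retrotransposon, had 219.9, 260.1 and 261 RPKM in the E14.5 libraries, against 37.2, 39.8 and 49.7 RPKM in the E12.5 libraries, and rose by 2.53 ± 0.27 (adjusted p = 0.00356). Asb4, its neighbour on chromosome 6 and a gene of hypothalamic neurons, had 26.9, 33.8 and 32.9 RPKM in the E14.5 libraries, against 2.38, 2.19 and 3.66 RPKM in the E12.5 libraries, and rose by 3.12 ± 0.27 (adjusted p = 0.00227). Magel2, a gene of the Prader-Willi region used in the hypothalamus, had 80.3, 84.3 and 76.0 RPKM in the E14.5 libraries, against 15.7, 21.1 and 24.2 RPKM in the E12.5 libraries, and rose by 1.95 ± 0.24 (adjusted p = 0.00403). The groups did not overlap in any of these genes. Peg3, a zinc finger gene, had 122, 143 and 125 RPKM in the E14.5 libraries, against 34.5, 49.7 and 51.2 RPKM in the E12.5 libraries, and rose by 1.52 ± 0.21 (adjusted p = 0.0061), and its neighbour Zim1 rose by 2.61 ± 0.37 (adjusted p = 0.0061). Dlk1, for a Delta-like membrane protein, had 94.8, 134 and 120.5 RPKM in the E14.5 libraries, against 42.8, 36.1 and 38.2 RPKM in the E12.5 libraries, and rose by 1.54 ± 0.22 (adjusted p = 0.0061), while it fell in the alar plate (-1.28 ± 0.36 (adjusted p = 0.0149)). Rtl1, in the same cluster as Dlk1, rose by 1.68 ± 0.33 (adjusted p = 0.0166). The features Mir127 and Mir433 lie antisense to Rtl1 and rose by 2.60 ± 0.32 (adjusted p = 0.00403) and 1.85 ± 0.47 (adjusted p = 0.0341), and because the strand is not given their reads cannot be told apart from those of Rtl1. Calcr, described among the receptors, is another member of this list and lies in the same cluster as Peg10 and Asb4.

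Features of small nucleolar RNAs and microRNAs made up 17 of the 120 features that fell (14.2%) and 5 of the 220 that rose (2.27%), beside 217 of all 13529 tested (1.6%). These features are short and the E14.5 libraries held the fewest reads, and the part of depth in this was not tested.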
